A study of Homo sapiens with 2 samples.

Results

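The genes described here encode the actin and microtubule cytoskeleton: actins, the Arp2/3 complex, proteins that bind actin monomers or cap, bundle and contract filaments, tropomyosins, non-muscle myosin II, adhesion and membrane linkers, tubulins and stathmin. They were chosen by symbol, 56 names in all. Of these 54 were among the 20981 genes of the deposited tables, and FLNC and TUBB3 were not analysed here. A mean of at least 1 CPM (counts scaled to the library total) was reached by 53, so that TUBB2B alone fell short. RNA was sequenced from PANC-1, an established human cell line from a carcinoma of the pancreatic duct, grown in DMEM with serum. One culture carried a control short hairpin RNA (shCtrl) and the other a hairpin against WBSCR22 (shWBSCR22), the older symbol of BUD23, a methyltransferase of the small ribosomal subunit. Each group held 1 library, with 16121638 counts in shCtrl and 15248099 in shWBSCR22. The differences below therefore have no replicate check: they are between these libraries, not shown to be between the treatments. In bulk RNA, fewer cells of a kind and less RNA per cell cannot be told apart.

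Actin monomers polymerise into filaments that push the cell edge forward, anchor adhesions and, with myosin II, contract. Tropomyosins and calponins lie along these filaments and set which myosins and severing proteins reach them. Microtubules are built from dimers of alpha- and beta-tubulin and are nucleated by complexes of gamma-tubulin. Each of these proteins is made as several isoforms from separate genes, some nearly identical in sequence. Many actin-system genes are known targets of the transcription factor SRF, which binds a promoter element called the CArG box and is switched on by its cofactors of the MRTF family when free actin monomer is scarce.

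The counts of some of these genes can depend on how reads were shared between near-identical copies, which was not tested. Over the whole coding sequence TUBA1A was 97.2% identical to TUBA1B and 95.9% to TUBA1C, against 84.4% to TUBA4A.

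The cytoplasmic actins are easier to tell apart. The first 60 coding bases on the gene's own strand are shown, from GENCODE release 29 (GRCh38), with capitals where ACTG1 (chr17:81512295-81512354, minus strand) differs from ACTB (chr7:5529598-5529657, minus strand).
ACTB: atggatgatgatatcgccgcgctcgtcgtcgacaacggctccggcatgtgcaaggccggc
ACTG1: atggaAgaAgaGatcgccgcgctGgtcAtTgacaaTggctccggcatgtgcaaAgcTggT
There were 10 differences here, and the coding sequences were 91.3% identical overall.

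The CArG box was searched on both strands in the 250 bases before the RefSeq start site (GRCh38.p14), for genes with a matched window. There was no window for 6 members, ACTB, ARPC1B, FSCN1, MYL9, PFN2 and TAGLN, so these were not searched. Windows were matched for 48 members, and 4 held a box, which is 8.33%, against 1.14% of 27305 windows of all genes. These 4 are shown as 60 bases with the box in capitals: ACTG1 at chr17:81512849-81512908 (minus strand), CNN2 at chr19:1026504-1026563 (plus), FLNA at chrX:154374684-154374743 (minus) and TPM4 at chr19:16067350-16067409 (plus).
ACTG1: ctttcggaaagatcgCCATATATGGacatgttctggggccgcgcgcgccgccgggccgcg
CNN2: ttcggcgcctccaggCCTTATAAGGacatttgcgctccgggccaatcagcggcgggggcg
FLNA: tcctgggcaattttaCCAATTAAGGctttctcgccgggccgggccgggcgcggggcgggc
TPM4: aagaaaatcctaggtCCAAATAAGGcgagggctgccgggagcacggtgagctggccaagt
The box ended 79 bases before the start site in CNN2, 84 in ACTG1 and in FLNA, and 163 in TPM4. A match describes these letters only, and boxes outside the window were not searched.

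The targeted gene was lower in the library labelled shWBSCR22. BUD23 counts were 3487 in shCtrl and 1892 in shWBSCR22, a log2 ratio of -0.72 after scaling. The 95% interval of this ratio ran from -1.01 to -0.43. Intervals here and below cover the error of drawing reads only, taken as drawn in groups of 8 in shCtrl and 15 in shWBSCR22, because low counts clustered at those numbers.

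More of the cytoskeletal genes lay below 0 than above it. Calls needed a 2-fold difference, a log2 ratio of 1 or more in size, and an interval that left out 0. By this rule 2 members were higher, RDX and ARPC1A, and 4 lower, TPM1, CNN2, TUBA1C and TUBB6, out of 53. Over all 12980 genes of at least 1 CPM 4.19% were called higher and 2.98% lower, or 444 and 502 genes with library totals in place of TMM where TMM gave 544 and 387. The members' shares, 3.77% and 7.55%, rest on 2 and 4 genes. At 30 CPM or more, 1 of 38 members was called higher and 0 lower, against 3.23% and 1.76% of all 3803 such genes. At 100 CPM or more, 0 of 27 were called in either direction, against 2.81% and 0.428% of 1635 genes. With the interval on undivided reads, 2 members were higher and 7 lower at 1 CPM or more, against 12.2% and 11.9% of all genes.

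Without the size condition, 9 members had an interval above 0 and 19 had one below. Over all genes it lay above 0 for 10.8% and below 0 for 8.2%, but these shares grow with depth. Among genes of at least 30 CPM they were 24.4% and 17.9%, where 8 and 15 of 38 members lay above and below. Among genes of at least 100 CPM they were 35.4% and 21.7%, and of 27 members at that level 4 lay above 0 and 12 below. With TMM scaling the balance of all abundant genes was thus towards higher and that of the members towards lower. The balance of all genes depended on the scaling. With library totals 8.91% of all genes lay above 0 and 10.9% below, against 7 and 24 of the 53 members. At 100 CPM or more that scaling gave 29.5% above and 28.9% below over all genes, against 3 and 16 of 27 members. The members above 0 by TMM and not by library totals were TPM2 and ACTR3, and those below 0 by library totals alone were FLNA, MYL12A, MYL12B, TMSB4X and VCL. The median log2 ratio was -0.25 over the members measured, -0.02 over all genes, and -0.16 and 0.07 among members and all genes of at least 100 CPM.

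**Figure D1:**
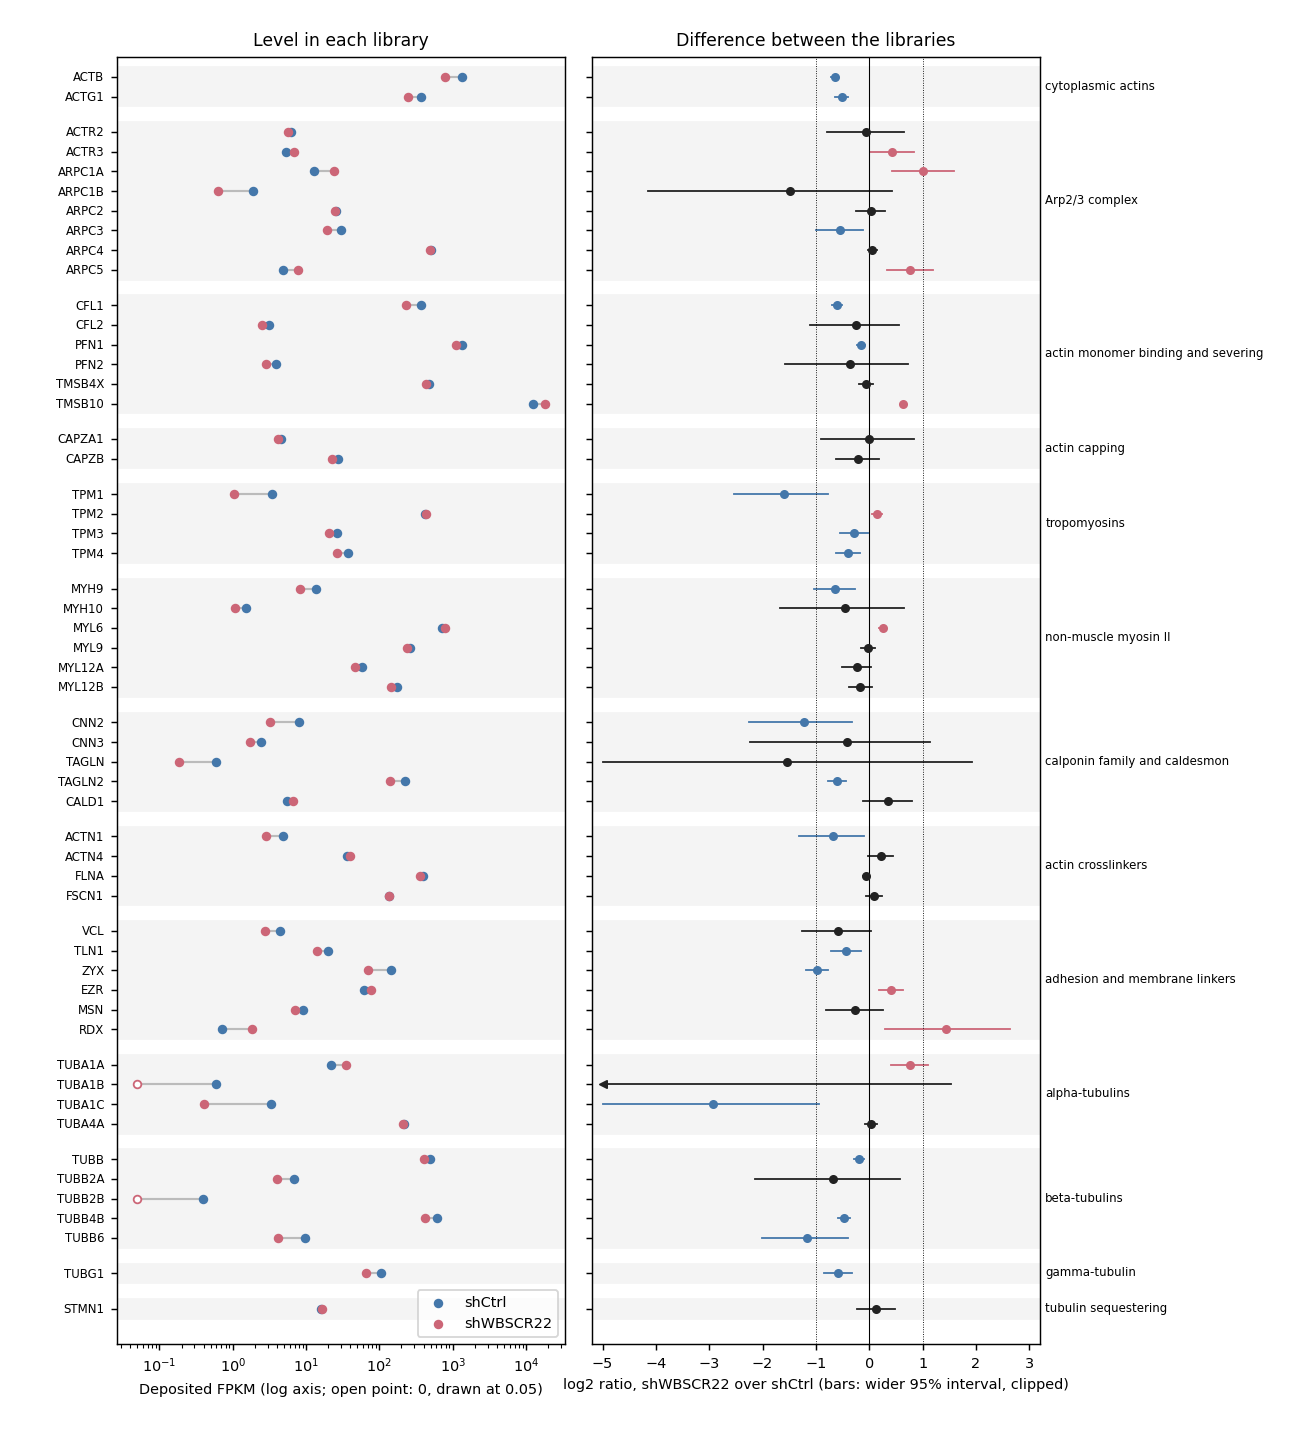
Level and difference of each of the 54 members in the tables, grouped by role. The left panel gives deposited FPKM in shCtrl (blue) and shWBSCR22 (red) on a log axis, with open points for genes at 0; the right panel gives the log2 ratio with its 95% interval for the 53 members measured, red where the interval lies above 0, blue where it lies below and black where it holds 0. Both actins lie near -0.6 with short bars, and the bars of TUBA1B (arrow), TUBA1C and TAGLN run past the left edge, where they are clipped.

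Both cytoplasmic actins were lower in the shWBSCR22 library. ACTB (ENSG00000075624, chromosome 7, 5527147 to 5563784), the main actin of non-muscle cells, had 75414 and 42874 counts in shCtrl and shWBSCR22, the order used throughout, and levels of 1325 and 796 FPKM. The log2 ratio was -0.65 (-0.71 to -0.59). ACTG1 (ENSG00000184009, chromosome 17, 81509971 to 81523847), the other cytoplasmic actin, had 18118 and 11256 counts, or 374 and 246 FPKM. Its log2 ratio was -0.52 (-0.64 to -0.40). Summed, the pair had a log2 ratio of -0.62, and ACTB made up 78.0% of their FPKM in shCtrl and 76.4% in shWBSCR22. Under every scaling, filter, pseudocount and GC correction tried, ACTB lay between -0.74 and -0.60 and ACTG1 between -0.61 and -0.51. The neighbour of ACTB on chromosome 7, FSCN1, which bundles filaments in cell protrusions, lies 29038 bases away on the other strand with a log2 ratio of 0.09 (-0.07 to 0.24).

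Proteins that bind actin monomers went in different directions. TMSB10, a beta-thymosin that sequesters monomers, was the most abundant member, at 98408 and 136585 counts, or 12269 and 17986 FPKM. The log2 ratio of 0.64 (0.60 to 0.68) was the highest among the 27 members of at least 100 CPM. TMSB4X, the second beta-thymosin, had 483 and 435 FPKM (log2 ratio -0.06, -0.19 to 0.06). The level of TMSB10 relative to ACTB in FPKM was 9.26 in shCtrl and 22.6 in shWBSCR22. In CPM, which is not scaled to length, TMSB10 had 6104 and 8958 and ACTB 4678 and 2812. CFL1, the cofilin that severs filaments, had 35064 and 20530 counts, or 369.8 and 229 FPKM (log2 ratio -0.61, -0.69 to -0.52). Its FPKM was 0.279 and 0.287 of that of ACTB, nearly the same in both libraries. PFN1, a profilin that feeds monomers to growing ends, had 1319 and 1112 FPKM (log2 ratio -0.16, -0.23 to -0.09). The minor isoforms CFL2 and PFN2, with at most 3.88 FPKM, had log2 ratios of -0.25 and -0.36 and intervals that held 0.

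Arp2/3 subunits, which nucleate branched filaments as a complex, did not move together. ARPC1A was called higher, with 428 and 765 counts, or 12.9 and 24.3 FPKM (log2 ratio 1.00, 0.42 to 1.58), at the edge of the size rule: library totals gave 0.92 and ended the call. Its alternative subunit ARPC1B, 7.99 kb downstream on chromosome 7, had 123 and 39 counts (log2 ratio -1.48, -4.15 to 0.42), and this interval held 0. A read-through gene, AC004922.1, shares 75.8% of the 50-base words of ARPC1A and 47.1% of those of ARPC1B, so that reads could be split between them. Summed, ARPC1A and ARPC1B had 551 and 804 counts (log2 ratio 0.71, 0.17 to 1.25). AC004922.1 is not part of this sum, so reads split with that gene are not restored by it. ARPC5 (0.76, 0.32 to 1.19) and ACTR3 (0.42, 0.01 to 0.83, or -0.08 to 0.75 with library totals) lay above 0, and ARPC3 (-0.55, upper bound -0.13) below. ACTR2, ARPC2 and ARPC4 had log2 ratios of -0.06, 0.03 and 0.05 with intervals that held 0.

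The levels of these subunits were far apart in both libraries. ARPC4 had 503 and 491 FPKM, or 85.2% and 84.6% of the summed FPKM of the 8 subunit genes. The next in shCtrl was ARPC3 at 29.99 FPKM, followed by ARPC2 at 25.9. In FPKM ARPC4 exceeded ARPC2 by 19.4-fold in shCtrl and 19.7-fold in shWBSCR22, nearly the same gap in both. The size of this gap depends on the length used for each gene, which was not checked. In CPM, which is not scaled to length, ARPC4 had 1819 and 1780 and ARPC2 171 and 164. The exons of ARPC4 overlap those of TADA3 on the opposite strand by 479 bases and those of the read-through gene ARPC4-TTLL3 by 541. Whether these matter for the count of ARPC4 was not tested. Capping protein, which closes the fast-growing end, had log2 ratios of -0.01 for its alpha subunit CAPZA1 and -0.22 for its beta subunit CAPZB, both with intervals that held 0.

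Tropomyosins were dominated by TPM2, and the least abundant of the 4 differed most. TPM1 (ENSG00000140416, chromosome 15, 63042632 to 63071915) was called lower, at 708 and 207 counts, or 3.40 and 1.05 FPKM. The log2 ratio was -1.61 (-2.54 to -0.78), and between -1.69 and -1.10 under the alternatives. TPM4 (36.7 and 26.2 FPKM) and TPM3 (26.5 and 20.6 FPKM) also lay below 0, with log2 ratios of -0.40 (-0.63 to -0.18) and -0.28 (-0.54 to -0.03). TPM2, with 22017 and 21668 counts, or 419 and 436 FPKM, lay above 0 at 0.14 (0.05 to 0.24), but its interval held 0 with library totals (0.06, -0.04 to 0.15). Its share of tropomyosin FPKM was 86.3% in shCtrl and 90.1% in shWBSCR22, and the summed FPKM of the family was 486 and 484. Total tropomyosin message was therefore close in the libraries while 3 of the 4 genes were lower in shWBSCR22. Antisense gene TPM1-AS overlaps TPM1 exons by 2070 bases, and reads of the pair cannot be told apart without strand.

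Of the myosin II genes the main heavy chain lay below 0 and the essential light chain above it. MYH9, the main non-muscle heavy chain, had 1973 and 1124 counts, or 13.5 and 8.15 FPKM (log2 ratio -0.65, -1.04 to -0.27). MYH10, the second heavy chain, had 224 and 146 counts (-0.45, -1.67 to 0.64). MYL6, the essential light chain, lay above 0 with 705 and 789 FPKM (log2 ratio 0.25, 0.19 to 0.31). The regulatory light chains MYL9, MYL12A and MYL12B, whose phosphorylation turns the motor on, had log2 ratios of -0.03, -0.23 and -0.17, all with intervals that held 0. MYL12A and MYL12B lie 5.67 kb apart on chromosome 18 with 91.9% identical coding sequences. Their sum lay just below 0, at -0.19 (-0.36 to -0.03). The ratio of MYL6 to MYH9 in FPKM was 52.1 in shCtrl and 96.9 in shWBSCR22. In CPM MYL6 had 3261 and 3653 and MYH9 122 and 73.7.

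Of 5 genes of the calponin family and caldesmon, whose products bind along actin filaments, 2 lay below 0, CNN2 and TAGLN2, and 3 had intervals that held 0. CNN2 was called lower, with 473 and 180 counts, or 8.02 and 3.23 FPKM (log2 ratio -1.23, -2.26 to -0.32). TAGLN2, the abundant transgelin of epithelial cells, had 8995 and 5265 counts, or 224 and 138 FPKM, and -0.61 (-0.78 to -0.43). TAGLN, the smooth muscle transgelin and a classic SRF target, had 37 and 11 counts, too few to place its log2 ratio of -1.54 (-8.81 to 1.93). CNN3 had -0.41 (-2.24 to 1.14). Caldesmon CALD1, which restrains actomyosin, had 0.35, with an interval of -0.11 to 0.81.

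Of the 4 crosslinkers measured, ACTN1 had an interval that left out 0, and with library totals FLNA did too. FLNA, the filamin that joins filaments into networks, had 66785 and 57318 counts, or 390.2 and 354 FPKM (log2 ratio -0.05, -0.11 to 0.00081). ACTN1, an alpha-actinin of stress fibres, had 828 and 458 counts, or 4.82 and 2.82 FPKM, and -0.69 (-1.32 to -0.09). Its paralog ACTN4 was more abundant, at 36.5 and 39.9 FPKM, with a log2 ratio of 0.21 (-0.02 to 0.44). The intervals of these paralogs did not overlap.

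Zyxin and talin, which tie actin to adhesions, lay below 0, and ezrin and radixin, which tie it to the plasma membrane, above. ZYX, zyxin of focal adhesions and stress fibres, had 8150 and 3699 counts, or 145 and 69.4 FPKM. Its log2 ratio of -0.97 (-1.18 to -0.77) was the lowest of the 38 members of at least 30 CPM and just short of the size rule; library totals took it past that size. TLN1, the talin that activates integrins, had 20.2 and 14.1 FPKM and -0.43 (-0.71 to -0.15). VCL, the vinculin that reinforces talin, had 718 and 425 counts and -0.59, with an interval of -1.25 to 0.03 that held 0. Among the ERM proteins, EZR, the ezrin of epithelial microvilli, lay above 0 with 62.0 and 77.7 FPKM (log2 ratio 0.41, 0.18 to 0.64). RDX, radixin, was called higher with 99 and 241 counts, or 0.72 and 1.85 FPKM (1.45, 0.29 to 2.65), and its ratio of 0.73 on the deposited FPKM with a pseudocount of 1 fell short of the size rule. MSN, moesin, had -0.27 (-0.82 to 0.25). Ezrin made up 86.5% of ERM FPKM in shCtrl and 89.8% in shWBSCR22.

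**Figure D2:**
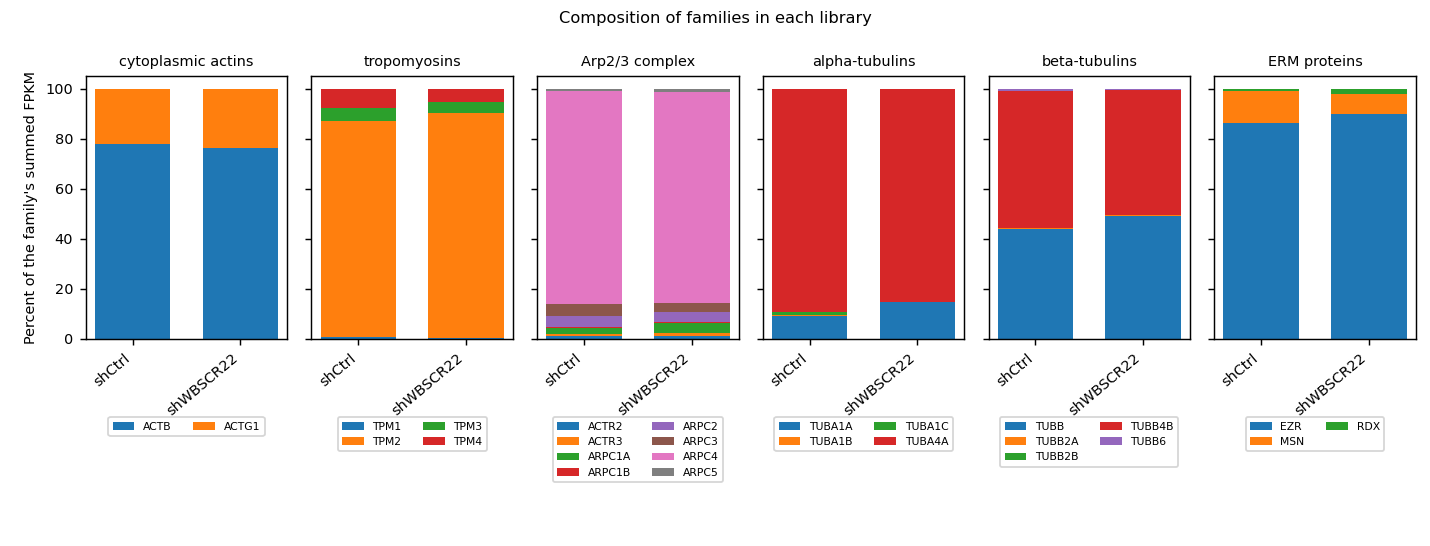
Share of each gene in the summed FPKM of its family, in percent, in the shCtrl and shWBSCR22 libraries (1 bar each). ACTB, TPM2, ARPC4, TUBA4A, TUBB4B and EZR each hold more than the rest of their family together in both bars, TUBB4B barely so in shWBSCR22 (50.1%). TUBA1A takes a larger part of alpha-tubulin in shWBSCR22, 14.4% against 9.17%.

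Alpha-tubulin message came mostly from TUBA4A, and of the 3 near-identical genes on chromosome 12 TUBA1A lay above 0, TUBA1C below, and TUBA1B had an interval that held 0. TUBA4A had 14214 and 12985 counts, or 215 and 208 FPKM (log2 ratio 0.04, -0.08 to 0.15). TUBA1A, with 1226 and 1843 counts, or 22.2 and 35.2 FPKM, lay above 0 at 0.75 (0.40 to 1.11). TUBA1C, with 251 and 29 counts, or 3.35 and 0.41 FPKM, was called lower at -2.93 (-6.13 to -0.95), or -1.63 on the deposited FPKM with a pseudocount of 1. TUBA1B, the alpha-tubulin usually abundant in dividing cells, had 34 and 0 counts, and its interval, unbounded below, reached 1.54 and held 0. These genes cannot be read one by one: 63.7% of the 50-base words of TUBA1B, 36.6% of those of TUBA1A and 33.9% of those of TUBA1C occur in transcripts of other genes. Antisense gene AC011603.2 held 50.2% of the words of TUBA1B, and antisense gene AC125611.3 held 16.8% of those of TUBA1C. TUBA1C held 26.8% of those of TUBA1A. Neither antisense gene is part of the sums below. Of the words of TUBA4A 21.3% occur elsewhere, most of them in STK16, which overlaps it. TUBA1A and TUBA1C also overlap by 490 exon bases on opposite strands. How the authors treated shared reads is not known, and its part in the levels of these genes, in the share of TUBA4A and in the ratio of beta- to alpha-tubulin was not tested. Summed over the 3 genes there were 1511 and 1872 counts (log2 ratio 0.47, 0.14 to 0.81). Summed over all 4, alpha-tubulin had a log2 ratio of 0.08, with an interval (-0.03 to 0.19) that held 0.

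Beta-tubulin was lower, so the ratio of beta to alpha message differed between the libraries. TUBB had 26750 and 20908 counts, or 492 and 407 FPKM (log2 ratio -0.19, -0.28 to -0.10). TUBB4B had 21004 and 13438 counts, or 615 and 416 FPKM, and -0.48 (-0.59 to -0.37). These lead the family, with TUBB4B at 54.7% and 50.1% of its FPKM and TUBB at 43.8% and 49.0%. TUBB6, a minor isotype, was called lower with 650 and 259 counts, or 9.76 and 4.11 FPKM (-1.16, -2.00 to -0.40). TUBB2A had 190 and 105 counts (-0.69, -2.15 to 0.57), and TUBB2B, below the level filter and 98.2% identical to it in coding sequence, had 14 and 0. Summed beta-tubulin had a log2 ratio of -0.32 (-0.39 to -0.25). In FPKM the sum was 1125 in shCtrl and 830.4 in shWBSCR22, which is 4.66 and 3.41 times the sum for alpha-tubulin. In CPM the sums were 3015 and 2276 for beta-tubulin and 975 and 974 for alpha-tubulin.

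TUBG1, the gamma-tubulin that seeds microtubules at the centrosome, was also lower, with 4103 and 2448 counts, or 105 and 66.3 FPKM (log2 ratio -0.58, -0.84 to -0.32). Of its 50-base words 27.6% occur in its paralog TUBG2. STMN1, stathmin, which sequesters tubulin dimers, had 1607 and 1568 counts and 0.13 (-0.22 to 0.48). As groups, the 10 microtubule members measured had a median log2 ratio of -0.53 and the 43 actin members -0.23. Among those of at least 30 CPM, 6 and 32 genes, the medians were -0.08 and -0.16, so the order of the systems turned with the level filter.

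**Figure D3:**
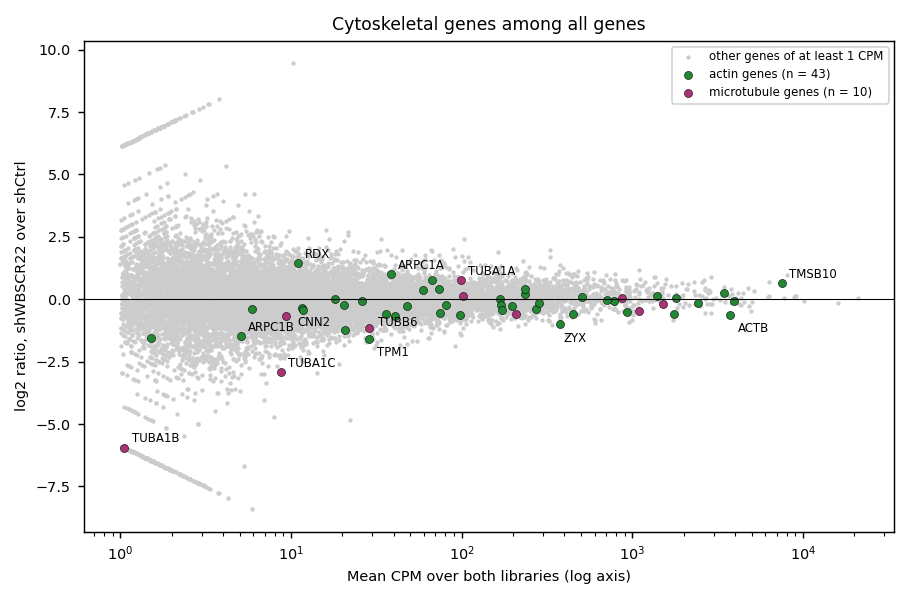
Log2 ratio of shWBSCR22 over shCtrl against mean CPM (log axis) for the 12980 genes of at least 1 CPM (grey), with 43 actin-system (green) and 10 microtubule genes (purple). The spread of all genes narrows with level, TMSB10 and ACTB stand on opposite sides of 0 at the right, and TUBA1B lies on the streak of genes with 0 counts in shWBSCR22.

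Features that the choice of genes did not use were set beside the ratios. The 16 members with more than 20% of their words shared with other genes had a median log2 ratio of -0.57, with the interval above 0 for 2 and below 0 for 8. Among them were 3 of the 4 genes called lower, TPM1, TUBA1C and TUBB6, and 1 of the 2 called higher, ARPC1A. The other 37 had a median of -0.22, with the interval above 0 for 7 and below 0 for 11. Over all genes the interval lay above 0 for 10.8% and below 0 for 8.2%, with 4.19% called higher and 2.98% lower. Word sharing was worked out for the members only, so the shares of all genes could not be split by it. The split was not matched for level either. The 15 members below 30 CPM had a median of -0.69 and held all 4 genes called lower. The part of word sharing in the ratios was not tested. The CArG-box genes were ACTG1, CNN2 and TPM4, with intervals below 0, and FLNA, whose interval just held it. Of 43 measured members with a window and no box, 15 lay below 0 and 9 above. ACTG1, TPM4 and FLNA had means above 100 CPM, a level at which 21.7% of all genes lay below 0 and 35.4% above. These are descriptions of few genes, and whether SRF has a part was not tested.

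Base composition moved with level in both libraries. Over all genes the median FPKM in shCtrl went from 1.01 in the lowest of 10 equal bins of transcript GC content to 8.93 in the highest. Across the 53 members, Spearman's rank correlation between GC content and FPKM was 0.44 in shCtrl and 0.37 in shWBSCR22. Between GC content and log2 ratio the rank correlation was -0.31 across members. It was near 0, at 0.07, across 12967 genes with the members among them, all from the same 2 libraries. Between mean CPM and log2 ratio the rank correlation was 0.33 across members and 0.02 across these 12967 genes. When the median ratio of each GC bin was removed, 10 members had an interval above 0 and 19 below, against 10.7% and 8.31% of all genes.

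**Figure D4:**
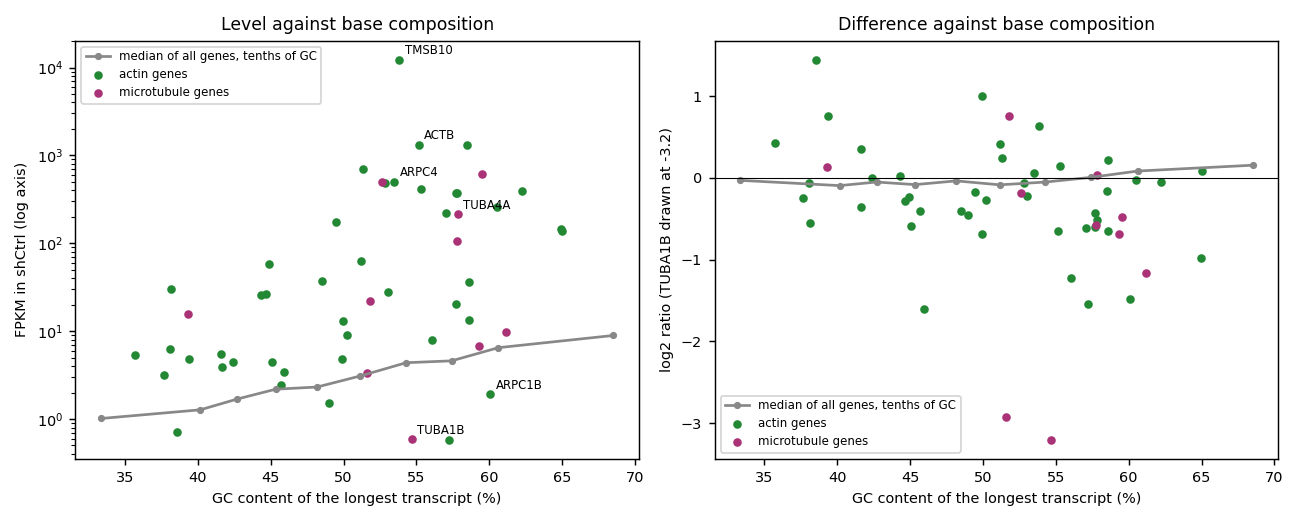
FPKM in shCtrl (left, log axis) and log2 ratio of shWBSCR22 over shCtrl (right) against the GC content of the longest transcript, for actin (green) and microtubule (purple) genes, with the medians of all genes in 10 bins of GC content (grey line); TUBA1B is drawn at the lower edge on the right. Median levels of all genes climb from 1.01 to 8.93 FPKM with GC, while most members stand above the line and those of high GC lie mostly below 0 on the right.

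Other genes of the actin system were mixed, and few were called. The counts of intervals in these lists stand beside 10.8% above 0 and 8.2% below over all genes, shares that grow with level. A gene said to lead a list had its largest absolute log2 ratio among genes of at least 30 CPM only. Counts and medians cover all measured genes, and less abundant ones could differ more, as in nucleation promoters (-2.01 to 2.61). Of 41 measured stress fibre and focal adhesion genes the interval lay above 0 for 4 and below 0 for 8, with a median of -0.11; LASP1, an actin-binding adaptor of adhesions, had 1122 and 346 counts (-1.53, -2.23 to -0.89). Among 24 genes of actin turnover and capping the counts were 3 and 2 and the median -0.29, and COTL1, a cofilin relative that binds filaments, had 1824 and 678 counts (-1.26, -1.76 to -0.80). Nucleation promoters had 5 above and 2 below of 30, with a median of -0.07, led in size by the formin FHOD1 (-0.64). Unconventional myosins had 2 and 1 of 15 with a median of 0.15, led by MYO1G (0.81). Other actins and muscle actomyosin genes had 4 and 0 of 7, with TNNT1 leading at 0.98. SRF and MRTF with other targets had 5 above 0 and 1 below of 16 and a median of 0.49, led by the immediate early gene JUNB (0.83). By the size rule the stress fibre list had 1 gene called higher and 2 lower, and turnover and capping 0 and 2. Nucleation promoters had 3 higher and 0 lower, and the unconventional myosins 0 in either direction. The other actins and the SRF and MRTF list each had 2 higher and 0 lower. Over all genes 4.19% were called higher and 2.98% lower, and these lists are short.

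Among microtubule partners the TRiC chaperonin, which folds actin and tubulin, was lower. All 8 of its subunits were measured, with 6 intervals below 0, 0 above and a median of -0.52. All 8 reached 30 CPM, a level at which 17.9% of all genes lay below 0 and 24.4% above. Over all measured genes these shares were 8.2% and 10.8%. TCP1 had 855 and 390 counts (-0.97, -1.64 to -0.34). Tubulin folding cofactors and prefoldin had 3 above and 0 below of 12 (median -0.08), led by PFDN5 (0.45). As above, leading genes are those with the largest absolute log2 ratio at 30 CPM or more. Other tubulins and gamma-tubulin complex genes had 4 and 0 of 12 (0.29), led by MZT2A (0.66), whose near-identical partner MZT2B had 0.61. Tubulin modification enzymes had 1 and 2 of 14 (0.07), led by SIRT2 (0.60). Microtubule-associated and severing proteins had 3 and 2 of 30 (-0.16). Their ratios ran from -5.98 to 1.84, and MAP4 (-0.58) led those of at least 30 CPM. Dynein, dynactin and transport kinesins had 3 and 2 of 31 (-0.20), led by KLC2 (-0.76). Intermediate filaments and septins, the remaining filament systems, had 3 and 7 of 19 (-0.20), led by NES (0.87). Of these 19 genes 14 reached 30 CPM. By the size rule TRiC, the tubulin modification enzymes, the transport motors and the intermediate filament list had 0 genes called in either direction. The folding cofactors and the other tubulins each had 1 called higher and 0 lower. Microtubule-associated and severing proteins had 2 higher and 1 lower. Over all genes 4.19% were called higher and 2.98% lower, and lists this short cannot be told from these shares.

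Markers of cell types were read beside these results. Of 8 ductal epithelial markers the keratins KRT8, KRT18 and KRT7 were abundant in both libraries (at least 194 FPKM), KRT19 had 0 counts in both, EPCAM had 15 and 0 and CDH1 had 2 and 0. MUC1 had 4734 and 8434 counts (log2 ratio 1.00, 0.83 to 1.17), SOX9 had 106 and 95, and the intervals of the 3 abundant keratins lay below 0. KRT19, EPCAM and CDH1 were thus at or near 0, and the identity of the cells is that of the labels. Smooth muscle markers summed to 158 CPM in shCtrl and 169.5 in shWBSCR22, with ACTA2 and SYNPO2 at 0 in both; DES had 208 and 626 counts, ACTG2 364 and 210, and SMTN 1915 and 1607. Markers of skeletal and cardiac muscle summed to 15.1 and 34.6 CPM. Fibroblast markers summed to 58.6 and 129 CPM, mostly COL1A1 (839 and 1768 counts), with COL3A1 and FAP at 0 in both. Endothelial markers summed to 15.1 and 13.5 CPM with CDH5 at 0 in both, and leukocyte markers to 73.8 and 15.2 CPM, with 692 and 21 counts of MPO and 191 and 0 of LYZ. Some of these sums were higher in shWBSCR22 and others lower, and their part in the cytoskeletal differences was not tested.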

How the data were processed

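The authors deposited raw counts per gene and FPKM per gene, a level scaled to gene length and library size, for 2 libraries, 1 per group. HISAT2, StringTie, DESeq, bcl2fastq, FastQC and the build GRCh38 are named, per the submitters' processing notes, with no versions or roles. Not given in the sources used here were how reads were counted, on which annotation and strand, and how duplicate or shared reads were handled. FPKM levels and shares set between genes depend on the length taken for each gene, which was not checked. Deposited counts summed to 16121638 in shCtrl and 15248099 in shWBSCR22.

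Members were taken by symbol, and the filter was a mean CPM of 1 or more. TMM factors came from edgeR 4.0.16 under R 4.3.3. Ratios are shWBSCR22 over shCtrl on the log2 scale, with 0.5 counts added to both. The 95% interval was the exact conditional binomial one (Clopper-Pearson), on counts divided by 8 (shCtrl) and 15 (shWBSCR22). Low counts were most frequent at these numbers, smoothed over 3 neighbouring values. It covers the drawing of reads and nothing of the difference between cultures. There is no p-value, since single libraries leave no residual spread to estimate. The procedure was run on simulated reads drawn in the same groups of 8 and 15. That run checks the calculation only, and cannot show whether real reads arise in such groups.

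Of 20981 gene identifiers 20951 were in GENCODE release 29, which gave GC content, exon overlap, coding sequences and shared words of 50 bases. Promoter windows were from RefSeq (GRCh38.p14). The members, the 14 lists of related genes, the 6 marker lists and the tests were chosen with earlier results of these data known. Some results of these lists are not reported here. Every member was accounted for, and each related list was named by the genes with the largest absolute log2 ratio among those of at least 30 CPM. Alternatives were scaling by library totals, upper quartiles or DESeq2 (1.42.0), 2 added counts, the deposited FPKM with a pseudocount of 0.1 or 1, other filters, removal of the median ratio of each of 10 GC bins, the interval on undivided counts, and no minimum size.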

Additional observations from a re-analysis of the deposited data

How the results depend on the processing

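No paired analysis was possible because each group held 1 library, and no replicate could be left out. No member called higher or lower changed direction under any alternative run. Against the main 2 higher and 4 lower, library totals and FPKM with a pseudocount of 0.1 gave 1 higher and 5 lower, a pseudocount of 1 gave 0 and 5, every gene with at least 1 count 1 and 4, and GC removal 2 and 5. Over all genes these settings called 444 and 502, 483 and 428, 312 and 251, 531 and 391, and 550 and 379, against 544 and 387. These are out of 12980 genes, except 18020 for every gene with at least 1 count and 12967 for GC removal. Scaling and filtering on genes of 30 CPM or more gave 0 in each direction, with ARPC1A just under 2-fold. Over all 3803 such genes that setting called 114 higher and 75 lower. The interval on undivided counts gave 7 lower, and no minimum size gave 9 higher and 19 lower. Counts of members with intervals above and below 0, chosen after seeing the data, were 7 and 24 under library totals (all genes 8.91% and 10.9%), 10 and 19 under GC removal (10.7% and 8.31%) and 7 and 16 at 30 CPM (23.2% and 19.3%); library totals among members of 30 CPM or more gave 6 and 20 (19.98% and 23.95%). The median ratio of all genes moved from -0.02 to -0.10 with library totals, and ARPC4, ARPC2 and TUBA4A, all near 0, turned sign with it; FSCN1 did so with FPKM and GC removal, and CAPZA1 with DESeq2 and upper-quartile scaling and GC removal. The log2 ratios of 6 of 53 members left their intervals with library totals or FPKM, and of 3 with GC removal, all among the abundant genes with short intervals.

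In CPM, which favours long transcripts, ACTB made up 80.6% and 79.2% of actin in shCtrl and shWBSCR22, TPM2 70.0% and 77.5% of tropomyosin, TUBA4A 90.4% and 87.4% of alpha-tubulin and TUBB4B 43.2% and 38.7% of beta-tubulin, so that TUBB led the latter. Log2 ratios of summed FPKM were -0.71 for the actins, -0.44 for the beta-tubulins and 0.53 for the beta-thymosins. Depth limits TAGLN, CNN3, ARPC1B, TUBA1B and TUBB2B most, whose intervals held 0 and spanned more than 2-fold.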
